A study of Mus musculus with 13 samples.

Results

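Levels of 36 genes that mark the cells of blood vessels were followed through 13 mouse microglia libraries. The genes were chosen by symbol and cover endothelial cells, which line the vessel, pericytes and smooth muscle cells, which wrap around it and are together called mural cells, and the basement membrane between them. All 36 were found among the 19737 genes of the expression table. Expression is in FPKM, the number of sequenced fragments per kilobase of gene and per 1000000 fragments of the library. The libraries were made from ribosomal RNA-depleted total RNA of cells labelled microglia, the resident macrophages of the brain. Wild type mice treated with AAV PHP.eB-EGFP gave 3 libraries. PHP.eB is an adeno-associated virus capsid that carries genes into the brain after injection into the blood, and EGFP, a green fluorescent protein, is its control cargo. 5xFAD mice, which overexpress mutant human amyloid precursor protein and presenilin from a neuronal promoter and develop amyloid plaques, gave 2 libraries with the same AAV PHP.eB-EGFP. A further 4 libraries came from 5xFAD mice that received AAV PHP.eB-circPOLR2A, which makes a circular RNA. Their treatment labels name the construct differently for each library, and they were kept as 1 group because their titles do. The last 4 libraries came from 5xFAD mice with knockout of PKR, the kinase that is activated by double-stranded RNA. The labels name no virus for the knockout group, and give neither the age of any mouse, nor how the microglia were isolated, nor whether each library is 1 animal. P-values therefore measure the spread between libraries of a group, which may be technical in part.

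Brain endothelial cells form the blood-brain barrier. They are joined by claudins, occludin and cadherins, carry efflux pumps and nutrient transporters on their surface, and respond to vascular endothelial growth factor (VEGF) and angiopoietins through receptor tyrosine kinases. Pericytes are held on capillaries by signalling through the PDGF receptor beta and share the basement membrane of type IV collagen and laminin with the endothelium, while contractile smooth muscle cells surround arterioles and arteries. None of these genes is a defining gene of microglia, although Sparc and Bsg are also expressed by cells outside the vessel wall, microglia among them, so their signal in a microglia preparation may have more than 1 cellular source.

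The depth recovered from the FPKM values was 45.2 to 70.0 M fragments a library (M, 1000000), with the PKR knockout libraries the deepest at 57.7 to 70.0 M. Of the 36 genes, 32 reached the mean of 1 FPKM over all libraries that was required for testing, and all 32 also reached it over the 10 5xFAD libraries alone. Emcn, Slc2a4, Kcnj8 and Abcc9 did not. The tested members had at least 242.5 estimated fragments in every library (the lowest was Esam). The microglial label was met by its markers, whose 10 genes summed to 2745 to 4867 FPKM in every library, among them Csf1r, the receptor for colony stimulating factor 1. The endothelial members summed to between 66.1 and 298.0 FPKM. Wild type replicate 3 stood apart from the other wild type libraries on the second principal component of all tested genes (17.2 against -18.2 and -22.1) and had the lowest microglial sum. Only for PKR knockout do the labels carry names of libraries, so a batch of library making and the knockout cannot be told apart. Exons of Abcb1a, Egfl7, Eng, Sox17, Abcc9, Tagln, Igfbp7, Pltp, Col4a1 and Col4a2 overlap exons of another gene, and how the counting treated strand is not given in the sources used here, so their values may include fragments of the neighbour.

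Endothelial, pericyte, smooth muscle and basement membrane genes were lower in 5xFAD EGFP than in wild type in every class. In 5xFAD EGFP, 28 of the 32 tested members fell (limma, Benjamini-Hochberg adjusted p under 0.05 over 10817 genes) and none rose, where 6.35% of all tested genes were called lowered. The median member changed by -1.40 on the log2(FPKM + 1) scale, against -0.03 for the median of all tested genes, and the median of the same 32 was 30.7% of the wild type mean FPKM (29.6% over all 36). Both 5xFAD EGFP libraries lay below all 3 wild type libraries in 31 of 32 tested members, a pattern found in 21.1% of tested genes, and in each of the 4 members too low to test. Sparc was the exception. The other 3 that did not pass were Flt1, Kdr and Bsg. In bulk RNA, fewer vascular cells in the preparation and less RNA of these genes in each cell cannot be told apart.

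By class, the median member was at 30.2% of wild type for endothelial junction and surface genes (9 of 9 tested lowered), 31.1% for endothelial receptors, secreted factors and transcription factors (6 of 8), 28% for transporters (2 of 2), 27.5% for pericyte genes (3 of 3), 35.7% for smooth muscle contractile genes (3 of 3) and 30.4% for matrix and broadly expressed genes (5 of 7). These medians include the untested members of each class, and a difference between classes was not tested. The number of calls varied more than the size of the change. Without 5xFAD EGFP replicate 2, which had the lower value in 30 of 32 tested members, 3 members passed (Eng, Rgs5 and Sox18) at a median log2 change of -1.14, where 0.73% of all tested genes were called lowered. Without 5xFAD EGFP replicate 1, 18 members passed at a median of -1.62, where 2.54% of all genes were called lowered. Either fit leaves 1 library in the 5xFAD EGFP group, which is then assumed to vary like the libraries of the other groups. Without wild type replicate 1, 18 passed at a median of -1.38 (3.11% of all genes lowered), and with the 2 groups fitted alone 6 passed at -1.40 (1.14% of all genes lowered). Every member was still below wild type in each of these fits. Of the 28 calls, omitting 1 library at a time (13 fits) ended none of those for Eng and Rgs5, ended 22 in 1 to 3 fits, those for Cldn5 and Vwf in 4, that for Col4a1 in 5 and that for Tagln in 7. The other fits that ended calls were those without wild type replicate 3 (5 members), circPOLR2A replicates 1 (2) and 4 (1) and PKR knockout replicates 3 (1) and 4 (1).

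**Figure D1:**
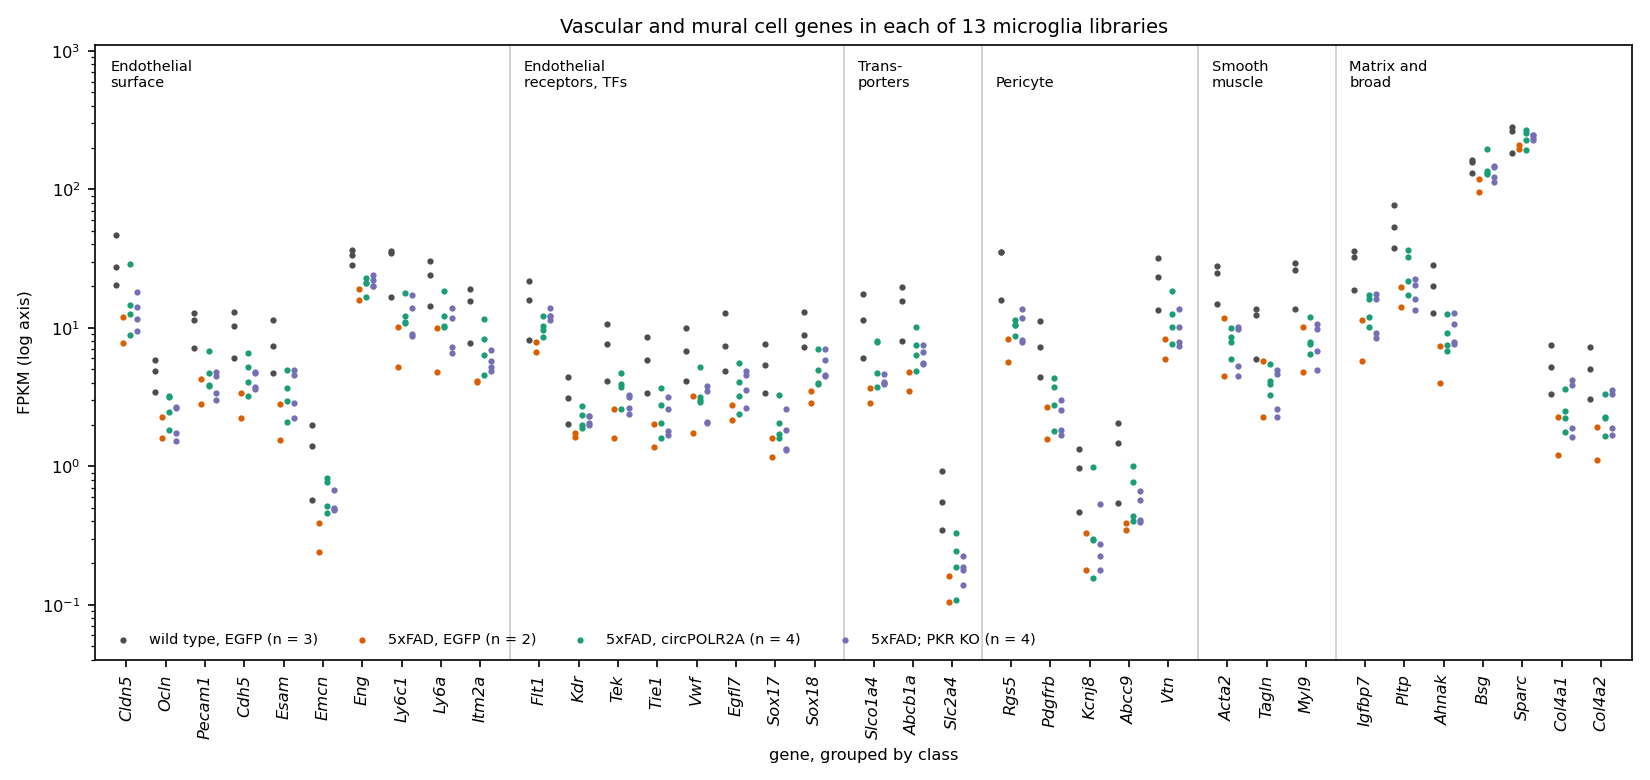
FPKM (log axis) of the 36 genes, grouped by class, with 1 point for each library in the 4 groups. The 2 5xFAD EGFP points of each gene lie below the 3 wild type points except for Sparc, and all 4 circPOLR2A points do so for 14 genes and all 4 PKR knockout points for 23. Of all tested genes, 21.1% are so placed in 5xFAD EGFP, 8.0% with circPOLR2A and 21.1% in PKR knockout.

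The promoters of the members were examined because members of different classes moved together. RefSeq promoter sequence (GRCm38.p6) was at hand for 25 of the 36 members, and the 250 bases before the RefSeq transcription start were searched on both strands. The 4 sequences printed here stand for a tight junction gene, a VEGF receptor, a pericyte gene and a smooth muscle gene, 5′ to 3′ on the gene's strand, and capitals mark each motif found. The RefSeq start of Myl9 lies inside the gene as annotated by GENCODE, so the last 44 of its 250 bases are not printed. A match on the opposite strand reads as its reverse complement.
Cldn5 (chr16:18776597-18776846, plus strand): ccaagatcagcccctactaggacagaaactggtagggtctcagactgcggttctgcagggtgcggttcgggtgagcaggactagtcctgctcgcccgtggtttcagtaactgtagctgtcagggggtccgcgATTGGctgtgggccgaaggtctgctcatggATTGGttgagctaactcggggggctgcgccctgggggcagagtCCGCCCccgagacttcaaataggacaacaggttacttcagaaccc
Flt1 (chr5:147726012-147726261, minus strand): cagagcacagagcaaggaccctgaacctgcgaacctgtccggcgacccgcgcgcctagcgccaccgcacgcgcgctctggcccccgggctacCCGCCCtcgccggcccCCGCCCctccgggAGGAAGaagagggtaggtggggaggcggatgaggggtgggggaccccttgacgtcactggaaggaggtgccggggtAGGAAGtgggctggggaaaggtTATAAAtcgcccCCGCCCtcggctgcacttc
Rgs5 (chr1:169655251-169655500, plus strand): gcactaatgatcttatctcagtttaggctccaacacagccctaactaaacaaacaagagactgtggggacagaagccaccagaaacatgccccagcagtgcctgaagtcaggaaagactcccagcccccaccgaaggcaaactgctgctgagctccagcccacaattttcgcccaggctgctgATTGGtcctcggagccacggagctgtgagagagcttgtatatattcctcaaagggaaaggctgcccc
Myl9 (chr2:156775214-156775419, plus strand): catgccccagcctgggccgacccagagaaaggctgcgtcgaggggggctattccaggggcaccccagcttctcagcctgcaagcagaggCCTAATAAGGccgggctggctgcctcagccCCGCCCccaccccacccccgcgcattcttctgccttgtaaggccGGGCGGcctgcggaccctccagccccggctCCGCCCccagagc
Cldn5 held 2 CCAAT boxes (CCAAT) and 1 GC box (GGGCGG), Flt1 held 2 ETS cores (AGGAAG), 3 GC boxes and a TATA box (TATAAA), Rgs5 held 1 CCAAT box, and Myl9 held 3 GC boxes and a CArG box, the element bound by serum response factor in contractile genes. The ETS core, the core of sites bound by ETS factors such as Erg, was in 32% of the 25 members and 29.2% of 27025 promoters of all genes. The GC box was in 44% and 32.9%, the CCAAT box in 28% and 34.5%, the TATA box in 12% and 13%, and the CArG box in 4% (Myl9 alone) and 1.4%. The TATA box and the CArG box can share letters in runs of A and T, and a match is only a match of letters. None of these motifs was common to the 4 promoters printed.

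All 9 tested genes of endothelial junctions and of the endothelial surface fell in 5xFAD EGFP. Changes below are on the log2(FPKM + 1) scale with Benjamini-Hochberg adjusted p, and positions are in GRCm38 from GENCODE mouse release 21. Cldn5, the main claudin of blood-brain barrier tight junctions, was at 27.5, 20.3 and 46.5 FPKM in wild type, 12 and 7.76 FPKM in 5xFAD EGFP, 12.6, 8.88, 28.8 and 14.6 FPKM with circPOLR2A, and 18.2, 11.6, 14.1 and 9.49 FPKM in PKR knockout. Cldn5 reached its wild type range in circPOLR2A replicate 3 and in no other 5xFAD library. In 5xFAD EGFP, Cldn5 (chromosome 16, 18776847 to 18778262, plus strand) fell by 1.52 (SE 0.43, limma adjusted p = 0.0323) and stood at 31.5% of its wild type mean. Ocln encodes occludin, a second tight junction protein, and was at 4.87, 3.44 and 5.83 FPKM in wild type, 2.25 and 1.6 FPKM in 5xFAD EGFP, 2.45, 1.82, 3.22 and 3.14 FPKM with circPOLR2A, and 2.64, 1.73, 2.67 and 1.52 FPKM in PKR knockout. Ocln was below its lowest wild type library in all 10 5xFAD libraries. Ocln (chromosome 13, 100496507 to 100552718, minus strand) fell by 0.95 (SE 0.23, limma adjusted p = 0.0149) in 5xFAD EGFP, to 40.9% of its wild type mean. Cdh5, VE-cadherin of the adherens junction, was at 10.3, 6.0 and 13.1 FPKM in wild type, 3.37 and 2.24 FPKM in 5xFAD EGFP, 4.08, 3.22, 6.57 and 5.22 FPKM with circPOLR2A, and 4.82, 3.74, 4.75 and 3.61 FPKM in PKR knockout. Cdh5 reached its wild type range in circPOLR2A replicate 3 and in no other 5xFAD library. In 5xFAD EGFP, Cdh5 (chromosome 8, 104101625 to 104144511, plus strand) fell by 1.46 (SE 0.28, limma adjusted p = 0.00476) and stood at 28.7% of its wild type mean. Pecam1 encodes an adhesion molecule of endothelial contacts that is also found on platelets and leukocytes, and was at 11.3, 7.16 and 12.8 FPKM in wild type, 4.29 and 2.83 FPKM in 5xFAD EGFP, 3.89, 3.79, 6.84 and 4.75 FPKM with circPOLR2A, and 4.48, 3.0, 4.83 and 3.37 FPKM in PKR knockout. Pecam1 was below its lowest wild type library in all 10 5xFAD libraries. Pecam1 (chromosome 11, 106654217 to 106750628, minus strand) fell by 1.31 (SE 0.26, limma adjusted p = 0.00577) in 5xFAD EGFP, to 34.1% of its wild type mean. Esam, an endothelial cell-selective adhesion molecule, was at 7.41, 4.7 and 11.3 FPKM in wild type, 2.82 and 1.54 FPKM in 5xFAD EGFP, 2.97, 2.08, 4.96 and 3.66 FPKM with circPOLR2A, and 4.93, 2.87, 4.56 and 2.24 FPKM in PKR knockout. Esam reached its wild type range in circPOLR2A replicate 3 and PKR knockout replicate 1 and in no other 5xFAD library. In 5xFAD EGFP, Esam (chromosome 9, 37528078 to 37538319, plus strand) fell by 1.43 (SE 0.35, limma adjusted p = 0.0179) and stood at 27.9% of its wild type mean.

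The remaining surface genes, which are not junction proteins, fell as well. Eng encodes endoglin, a co-receptor for TGF-beta ligands, and was at 36.2, 28.2 and 33.6 FPKM in wild type, 19.1 and 15.9 FPKM in 5xFAD EGFP, 16.8, 21, 22.9 and 21 FPKM with circPOLR2A, and 22.3, 20.1, 23.9 and 20.0 FPKM in PKR knockout. Eng was below its lowest wild type library in all 10 5xFAD libraries. In 5xFAD EGFP, Eng (chromosome 2, 32646595 to 32682669, plus strand) fell by 0.86 (SE 0.14, limma adjusted p = 0.00193) and stood at 53.6% of its wild type mean. For Ly6c1, a GPI-anchored surface antigen that is high in brain endothelium, the values were 36.1, 16.6 and 34.5 FPKM in wild type, 10.2 and 5.22 FPKM in 5xFAD EGFP, 10.8, 11, 17.9 and 12.1 FPKM with circPOLR2A, and 17.3, 9.01, 13.9 and 8.77 FPKM in PKR knockout. Ly6c1 reached its wild type range in circPOLR2A replicate 3 and PKR knockout replicate 1 and in no other 5xFAD library. Ly6c1 (chromosome 15, 75044018 to 75048830, minus strand) fell by 1.77 (SE 0.37, limma adjusted p = 0.00784) in 5xFAD EGFP, to 26.5% of its wild type mean. The Ly6c1-201 transcript is 97.6% identical to Ly6c2-201 over 822 aligned bases, and Ly6c2 was listed at 0.0565 to 0.697 FPKM, so reads may be split between them. Ly6a encodes Sca-1, a related GPI-anchored antigen, and was at 23.9, 14.3 and 30.5 FPKM in wild type, 9.91 and 4.77 FPKM in 5xFAD EGFP, 10.2, 10.3, 18.4 and 12.1 FPKM with circPOLR2A, and 14, 7.24, 11.8 and 6.61 FPKM in PKR knockout. Ly6a reached its wild type range in circPOLR2A replicate 3 and in no other 5xFAD library. In 5xFAD EGFP, Ly6a (chromosome 15, 74994877 to 74998031, minus strand) fell by 1.53 (SE 0.38, limma adjusted p = 0.0183) and stood at 32.1% of its wild type mean. For Itm2a, an integral membrane protein found in endothelial cells, the values were 15.6, 7.73 and 19.1 FPKM in wild type, 4.04 and 4.12 FPKM in 5xFAD EGFP, 6.35, 4.55, 11.6 and 8.3 FPKM with circPOLR2A, and 6.87, 5.21, 4.9 and 5.78 FPKM in PKR knockout. Itm2a reached its wild type range in circPOLR2A replicates 3 and 4 and in no other 5xFAD library. Itm2a (chromosome X, 107397099 to 107403376, minus strand) fell by 1.49 (SE 0.34, limma adjusted p = 0.0122) in 5xFAD EGFP, to 28.8% of its wild type mean.

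Emcn, endomucin, a sialomucin of capillary and venous endothelium, was below the level for testing. Its FPKM was 1.41, 0.574 and 1.98 in wild type and 0.39 and 0.239 in 5xFAD EGFP. It ranged from 0.462 to 0.826 with circPOLR2A and from 0.485 to 0.670 in PKR knockout. The 5xFAD EGFP mean was 23.9% of wild type, below the 26.5% to 53.6% of the tested genes of the class.

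Receptors of endothelial growth factors were below wild type in both 5xFAD EGFP libraries. Flt1, VEGF receptor 1, a high-affinity receptor that also acts as a decoy for VEGF, was at 15.9, 8.15 and 21.7 FPKM in wild type, 7.85 and 6.67 FPKM in 5xFAD EGFP, 8.62, 9.58, 12.2 and 10.3 FPKM with circPOLR2A, and 12.1, 12.1, 13.8 and 11.4 FPKM in PKR knockout. Flt1 (chromosome 5, 147561604 to 147726011, minus strand) differed from wild type by -0.88 (SE 0.28, limma adjusted p = 0.0515) on the log2 scale in 5xFAD EGFP, just outside the threshold, and by -0.19 (SE 0.23, limma adjusted p = 0.546) in PKR knockout. All 8 libraries with circPOLR2A or PKR knockout lay within its wild type range, and both 5xFAD EGFP libraries lay below it. Kdr, VEGF receptor 2, the main signalling receptor for VEGF-A, was at 3.1, 2.03 and 4.4 FPKM in wild type, 1.75 and 1.62 FPKM in 5xFAD EGFP, 1.98, 1.88, 2.74 and 2.33 FPKM with circPOLR2A, and 2.04, 2.32, 2.31 and 1.98 FPKM in PKR knockout. The circPOLR2A and PKR knockout groups overlapped wild type for Kdr. Kdr (chromosome 5, 75932827 to 75978458, minus strand) differed from wild type by -0.60 (SE 0.18, limma adjusted p = 0.0505) in 5xFAD EGFP. Both receptors kept more of their wild type level than most endothelial members, at 47.6% for Flt1 and 53.2% for Kdr. Their calls depended on the setting. Flt1 passed in 5 of 10 alternatives that kept every library (limma adjusted p of 0.0119 to 0.266) and Kdr in 4 of 9 (0.0112 to 0.238). Without wild type replicate 2 both passed, Flt1 at -1.25 and Kdr at -0.81 (limma adjusted p = 0.000631 and 0.00342).

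The angiopoietin receptor and its partner fell with the other endothelial genes. Tek encodes Tie2, the receptor tyrosine kinase for angiopoietins, and was at 7.66, 4.1 and 10.7 FPKM in wild type, 2.58 and 1.59 FPKM in 5xFAD EGFP, 3.71, 2.6, 4.7 and 3.9 FPKM with circPOLR2A, and 3.14, 2.62, 3.27 and 2.39 FPKM in PKR knockout. Tek reached its wild type range in circPOLR2A replicate 3 and in no other 5xFAD library. In 5xFAD EGFP, Tek (chromosome 4, 94739289 to 94874976, plus strand) fell by 1.40 (SE 0.28, limma adjusted p = 0.00658) and stood at 27.9% of its wild type mean. For Tie1, the orphan receptor that pairs with Tek, the values were 5.83, 3.4 and 8.6 FPKM in wild type, 2.01 and 1.38 FPKM in 5xFAD EGFP, 2.05, 1.59, 3.68 and 2.79 FPKM with circPOLR2A, and 3.16, 1.8, 2.61 and 1.68 FPKM in PKR knockout. Tie1 reached its wild type range in circPOLR2A replicate 3 and in no other 5xFAD library. Tie1 (chromosome 4, 118471191 to 118490061, minus strand) fell by 1.30 (SE 0.31, limma adjusted p = 0.0154) in 5xFAD EGFP, to 28.5% of its wild type mean. Vwf encodes von Willebrand factor, stored in endothelial granules for clotting, and was at 6.75, 4.16 and 10.0 FPKM in wild type, 3.2 and 1.75 FPKM in 5xFAD EGFP, 2.92, 3.02, 5.22 and 3.14 FPKM with circPOLR2A, and 3.81, 2.09, 3.49 and 2.04 FPKM in PKR knockout. Vwf reached its wild type range in circPOLR2A replicate 3 and in no other 5xFAD library. In 5xFAD EGFP, Vwf (chromosome 6, 125546774 to 125686679, plus strand) fell by 1.16 (SE 0.32, limma adjusted p = 0.0293) and stood at 35.5% of its wild type mean. For Egfl7, a factor secreted by endothelial cells, the values were 7.34, 4.85 and 12.7 FPKM in wild type, 2.75 and 2.16 FPKM in 5xFAD EGFP, 3.19, 2.38, 5.55 and 4.03 FPKM with circPOLR2A, and 4.89, 3.54, 4.54 and 2.63 FPKM in PKR knockout. Egfl7 reached its wild type range in circPOLR2A replicate 3 and PKR knockout replicate 1 and in no other 5xFAD library. Egfl7 (chromosome 2, 26580014 to 26593120, plus strand) fell by 1.34 (SE 0.33, limma adjusted p = 0.0179) in 5xFAD EGFP, to 29.6% of its wild type mean.

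Sox17 and Sox18 are SoxF transcription factors of endothelial identity. Sox17, needed for arterial endothelium, was at 5.37, 3.37 and 7.65 FPKM in wild type, 1.61 and 1.16 FPKM in 5xFAD EGFP, 1.61, 1.71, 3.26 and 2.05 FPKM with circPOLR2A, and 2.59, 1.34, 1.84 and 1.3 FPKM in PKR knockout. Sox17 was below its lowest wild type library in all 10 5xFAD libraries. In 5xFAD EGFP, Sox17 (chromosome 1, 4490931 to 4497354, minus strand) fell by 1.39 (SE 0.28, limma adjusted p = 0.00609) and stood at 25.4% of its wild type mean. For Sox18, a SoxF factor of blood and lymphatic endothelium, the values were 8.84, 7.32 and 13.1 FPKM in wild type, 2.84 and 3.51 FPKM in 5xFAD EGFP, 3.91, 4.02, 7.06 and 4.98 FPKM with circPOLR2A, and 5.88, 4.55, 7.02 and 4.45 FPKM in PKR knockout. Sox18 was below its lowest wild type library in all 10 5xFAD libraries. Sox18 (chromosome 2, 181669836 to 181671640, minus strand) fell by 1.33 (SE 0.25, limma adjusted p = 0.00413) in 5xFAD EGFP, to 32.6% of its wild type mean.

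Transporters of the barrier followed the same pattern. Slco1a4 encodes an organic anion transporter of brain endothelium, and was at 11.4, 6.04 and 17.4 FPKM in wild type, 3.65 and 2.84 FPKM in 5xFAD EGFP, 4.75, 3.73, 7.84 and 8.05 FPKM with circPOLR2A, and 4.65, 4.05, 3.91 and 3.96 FPKM in PKR knockout. Slco1a4 reached its wild type range in circPOLR2A replicates 3 and 4 and in no other 5xFAD library. In 5xFAD EGFP, Slco1a4 (chromosome 6, 141805440 to 141856199, minus strand) fell by 1.47 (SE 0.34, limma adjusted p = 0.0138) and stood at 28% of its wild type mean. For Abcb1a, the efflux pump P-glycoprotein, the values were 15.7, 7.99 and 19.8 FPKM in wild type, 4.78 and 3.5 FPKM in 5xFAD EGFP, 6.35, 4.88, 10.2 and 7.54 FPKM with circPOLR2A, and 7.54, 5.48, 6.69 and 5.57 FPKM in PKR knockout. Abcb1a reached its wild type range in circPOLR2A replicate 3 and in no other 5xFAD library. Abcb1a (chromosome 5, 8660077 to 8748575, plus strand) fell by 1.52 (SE 0.32, limma adjusted p = 0.00753) in 5xFAD EGFP, to 28.5% of its wild type mean.

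Slc2a4, the insulin-responsive glucose transporter GLUT4, is not the glucose transporter typical of brain endothelium and was at most 0.923 FPKM, too low to test. It was at 0.551, 0.344 and 0.923 FPKM in wild type and 0.161 and 0.105 FPKM in 5xFAD EGFP, and all 10 5xFAD libraries were below wild type. Slc2a1, which encodes GLUT1, the glucose transporter of the barrier that astrocytes also express, was at 82.4, 43.6 and 93.6 FPKM in wild type, 38.6 and 27.1 FPKM in 5xFAD EGFP, 34.7, 36.8, 52.7 and 36.7 FPKM with circPOLR2A, and 59.6, 33.8, 52.8 and 32.3 FPKM in PKR knockout. Its log2 change of -1.08 (SE 0.34, limma adjusted p = 0.0515) in 5xFAD EGFP lay just outside the threshold.

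Among tested members Rgs5, a pericyte gene, had the largest change on the log2(FPKM + 1) scale. Rgs5, a regulator of G protein signalling and a widely used pericyte marker, was at 35, 15.8 and 35 FPKM in wild type, 8.32 and 5.67 FPKM in 5xFAD EGFP, 10.5, 8.79, 11.3 and 10.4 FPKM with circPOLR2A, and 13.6, 7.94, 11.7 and 8.16 FPKM in PKR knockout. Rgs5 was below its lowest wild type library in all 10 5xFAD libraries. In 5xFAD EGFP, Rgs5 (chromosome 1, 169655501 to 169695813, plus strand) fell by 1.82 (SE 0.31, limma adjusted p = 0.00218) and stood at 24.4% of its wild type mean. Rgs5 passed the threshold in each of the alternatives and leave-one-out fits. Pdgfrb encodes PDGF receptor beta, which binds PDGF-B from endothelial cells, and was at 7.29, 4.4 and 11.2 FPKM in wild type, 2.68 and 1.57 FPKM in 5xFAD EGFP, 2.78, 1.79, 4.33 and 3.75 FPKM with circPOLR2A, and 3.0, 1.82, 2.54 and 1.67 FPKM in PKR knockout. Pdgfrb was below its lowest wild type library in all 10 5xFAD libraries. Pdgfrb fell by 1.41 (SE 0.33, limma adjusted p = 0.0142) in 5xFAD EGFP, to 27.8% of its wild type mean. Vtn, vitronectin, a matrix glycoprotein made by brain pericytes, was at 23.4, 13.5 and 32 FPKM in wild type, 8.27 and 5.98 FPKM in 5xFAD EGFP, 10.2, 7.68, 18.5 and 12.6 FPKM with circPOLR2A, and 13.7, 7.83, 10.1 and 7.35 FPKM in PKR knockout. Vtn reached its wild type range in circPOLR2A replicate 3 and PKR knockout replicate 1 and in no other 5xFAD library. In 5xFAD EGFP, Vtn (chromosome 11, 78499091 to 78502324, plus strand) fell by 1.5 (SE 0.37, limma adjusted p = 0.0175) and stood at 31% of its wild type mean.

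Kcnj8 and Abcc9 encode the Kir6.1 pore and the SUR2 subunit of the ATP-sensitive potassium channel of pericytes and smooth muscle, and both were too low to test. Kcnj8 was at 0.964, 0.469 and 1.34 FPKM in wild type and 0.33 and 0.179 FPKM in 5xFAD EGFP. Abcc9 was at 1.46, 0.541 and 2.06 FPKM in wild type and 0.388 and 0.348 FPKM in 5xFAD EGFP. The 5xFAD EGFP means were 27.5% and 27.2% of wild type, and the lowest wild type library of each gene was wild type replicate 2.

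Contractile genes of smooth muscle were lower in every 5xFAD group. Acta2 encodes smooth muscle alpha-actin, and was at 25, 14.9 and 28 FPKM in wild type, 11.7 and 4.46 FPKM in 5xFAD EGFP, 8.58, 5.97, 9.9 and 7.95 FPKM with circPOLR2A, and 9.78, 4.5, 10.2 and 5.26 FPKM in PKR knockout. Acta2 was below its lowest wild type library in all 10 5xFAD libraries. In 5xFAD EGFP, Acta2 (chromosome 19, 34241090 to 34255590, minus strand) fell by 1.46 (SE 0.39, limma adjusted p = 0.0271) and stood at 35.7% of its wild type mean. The 2 5xFAD EGFP libraries differed from each other by a larger ratio for Acta2, Tagln and Myl9 than for any other tested member. Without 5xFAD EGFP replicate 2 the change of Acta2 was -0.85 and that of Tagln -0.73 (limma adjusted p = 0.34 and 0.434), and without replicate 1 they were -2.07 and -1.77 (0.0183 and 0.0326). For Tagln, transgelin, an actin-binding protein also called SM22, the values were 12.4, 5.98 and 13.7 FPKM in wild type, 5.71 and 2.26 FPKM in 5xFAD EGFP, 4.14, 3.25, 5.46 and 3.9 FPKM with circPOLR2A, and 4.95, 2.25, 4.63 and 2.59 FPKM in PKR knockout. Tagln was below its lowest wild type library in all 10 5xFAD libraries. Tagln (chromosome 9, 45929619 to 45936058, minus strand) fell by 1.25 (SE 0.37, limma adjusted p = 0.0432) in 5xFAD EGFP, to 37.2% of its wild type mean. Myl9 encodes a regulatory light chain of smooth muscle myosin, and was at 26, 13.7 and 29.5 FPKM in wild type, 10.2 and 4.79 FPKM in 5xFAD EGFP, 7.62, 6.5, 11.9 and 7.93 FPKM with circPOLR2A, and 10.6, 4.98, 9.86 and 6.76 FPKM in PKR knockout. Myl9 was below its lowest wild type library in all 10 5xFAD libraries. In 5xFAD EGFP, Myl9 (chromosome 2, 156775420 to 156781658, plus strand) fell by 1.52 (SE 0.38, limma adjusted p = 0.0179) and stood at 32.4% of its wild type mean.

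Of 7 matrix and broadly expressed genes 5 fell in 5xFAD EGFP. Igfbp7, a secreted protein that binds insulin-like growth factors and type IV collagen, was at 32.4, 18.7 and 36 FPKM in wild type, 11.3 and 5.73 FPKM in 5xFAD EGFP, 11.9, 10.1, 17.3 and 16.2 FPKM with circPOLR2A, and 17.6, 8.41, 16 and 9.13 FPKM in PKR knockout. Igfbp7 was below its lowest wild type library in all 10 5xFAD libraries. In 5xFAD EGFP, Igfbp7 (chromosome 5, 77349240 to 77408041, minus strand) fell by 1.67 (SE 0.37, limma adjusted p = 0.0104) and stood at 29.3% of its wild type mean. Pltp encodes phospholipid transfer protein, and was at 53, 37.8 and 76.8 FPKM in wild type, 19.8 and 14.1 FPKM in 5xFAD EGFP, 21.9, 17.2, 36.4 and 32.4 FPKM with circPOLR2A, and 22.4, 16, 20.3 and 13.5 FPKM in PKR knockout. Pltp was below its lowest wild type library in all 10 5xFAD libraries. Pltp (chromosome 2, 164839518 to 164857711, minus strand) fell by 1.62 (SE 0.34, limma adjusted p = 0.00738) in 5xFAD EGFP, to 30.4% of its wild type mean. Ahnak, a giant scaffold protein, was at 20.0, 12.8 and 28.4 FPKM in wild type, 7.38 and 3.99 FPKM in 5xFAD EGFP, 7.49, 6.75, 12.6 and 9.14 FPKM with circPOLR2A, and 12.7, 7.67, 10.7 and 7.89 FPKM in PKR knockout. Ahnak was below its lowest wild type library in all 10 5xFAD libraries. In 5xFAD EGFP, Ahnak (chromosome 19, 8989284 to 9076914, plus strand) fell by 1.66 (SE 0.33, limma adjusted p = 0.00592) and stood at 27.9% of its wild type mean. Col4a1 encodes an alpha chain of type IV collagen, the main collagen of the basement membrane, and was at 5.17, 3.33 and 7.54 FPKM in wild type, 2.26 and 1.2 FPKM in 5xFAD EGFP, 2.24, 1.76, 3.64 and 2.49 FPKM with circPOLR2A, and 4.22, 1.9, 3.89 and 1.62 FPKM in PKR knockout. Col4a1 reached its wild type range in circPOLR2A replicate 3 and PKR knockout replicates 1 and 3 and in no other 5xFAD library. Col4a1 (chromosome 8, 11198423 to 11312826, minus strand) fell by 1.19 (SE 0.35, limma adjusted p = 0.0379) in 5xFAD EGFP, to 32.4% of its wild type mean. Col4a2, the alpha chain that assembles with Col4a1, was at 5.0, 3.04 and 7.3 FPKM in wild type, 1.92 and 1.11 FPKM in 5xFAD EGFP, 2.23, 1.65, 3.34 and 2.28 FPKM with circPOLR2A, and 3.57, 1.89, 3.33 and 1.69 FPKM in PKR knockout. Col4a2 reached its wild type range in circPOLR2A replicate 3 and PKR knockout replicates 1 and 3 and in no other 5xFAD library. In 5xFAD EGFP, Col4a2 (chromosome 8, 11312805 to 11449287, plus strand) fell by 1.24 (SE 0.31, limma adjusted p = 0.0188) and stood at 29.6% of its wild type mean. Col4a1 and Col4a2 lie head to head and their first exons overlap in the annotation.

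Bsg and Sparc were the most abundant members and moved least. Bsg, basigin, a membrane glycoprotein of the barrier that is also on many other cells, was at 161.7, 131.0 and 158.2 FPKM in wild type, 118.7 and 95.1 FPKM in 5xFAD EGFP, 129.9, 130.4, 194.8 and 135.4 FPKM with circPOLR2A, and 147.9, 123.2, 144.6 and 113.3 FPKM in PKR knockout. Bsg (chromosome 10, 79704491 to 79711969, plus strand) differed from wild type by -0.49 (SE 0.20, limma adjusted p = 0.130) in 5xFAD EGFP. Sparc, a matrix-associated glycoprotein, was at 280.5, 261.9 and 181.9 FPKM in wild type, 208.4 and 195.2 FPKM in 5xFAD EGFP, 225.4, 256.5, 268.9 and 191.3 FPKM with circPOLR2A, and 234.1, 225.6, 247.3 and 247.9 FPKM in PKR knockout. Sparc (chromosome 11, 55394500 to 55423183, minus strand) differed from wild type by -0.23 (SE 0.19, limma adjusted p = 0.488), and its lowest wild type library was replicate 3, the one highest in most other members.

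Levels were next expressed relative to the endothelial members of the same library, a measure chosen after the values were seen and given without a test. For each member the log2 ratio of its FPKM to the geometric mean of the other tested endothelial members was taken (16 of them for an endothelial member, 17 for the rest). In 27 of 32 tested members the mean ratio of 5xFAD EGFP was within 0.5 of that of wild type. The 5 others were Eng, Flt1, Kdr, Bsg and Sparc, all of them relatively higher in 5xFAD EGFP. Flt1 had ratios of 0.32 to 0.65 in wild type, 1.00 and 1.28 in 5xFAD EGFP, 0.76 to 1.34 with circPOLR2A and 1.10 to 1.69 in PKR knockout. Kdr had ratios of -1.89 to -1.80 in wild type, -1.30 and -0.89 in 5xFAD EGFP, -1.54 to -1.15 with circPOLR2A and -1.63 to -0.87 in PKR knockout. For Flt1, Kdr and Bsg all 10 5xFAD libraries were above all 3 wild type libraries on this measure, and for Sox17 and Rgs5 all 10 were below. Sox17 was at -1.05 to -0.95 in wild type and at -1.71 to -1.27 over the other 3 groups. No such separation over all 10 libraries was found for the remaining 27 members. The share of all tested genes separated in this way was not counted. The endothelial geometric mean averaged 10.5 FPKM in wild type and 3.5 FPKM in 5xFAD EGFP. A gene that stayed level would therefore rise on this measure.

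**Figure D2:**
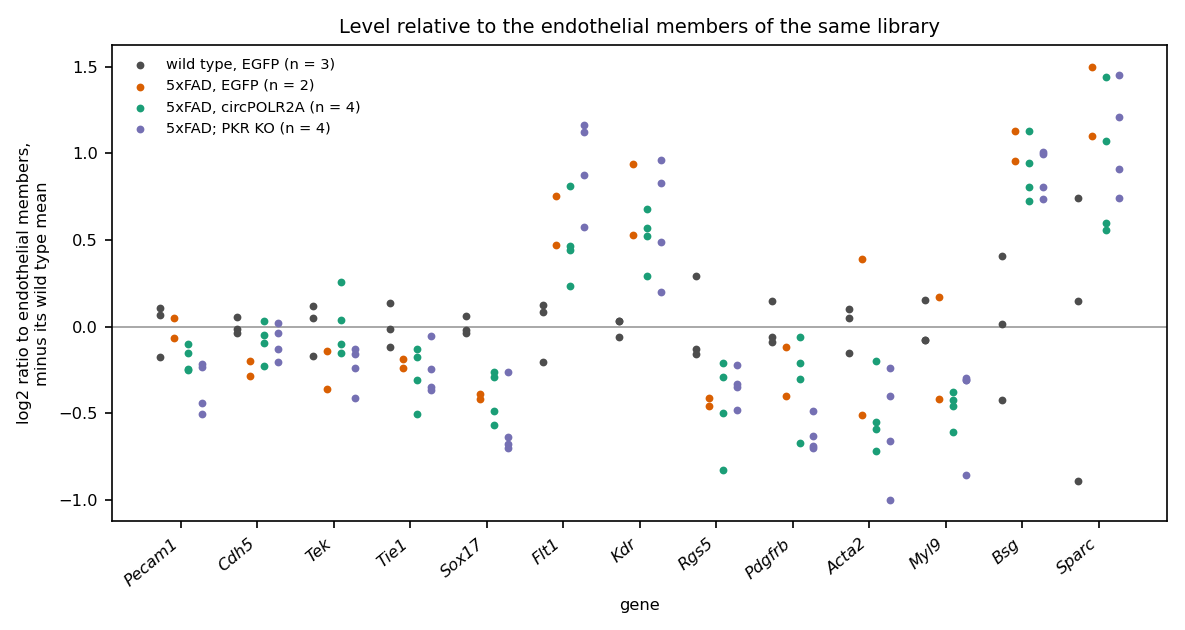
Log2 ratio of 13 genes to the geometric mean FPKM of the other endothelial members in the same library, with the wild type mean of each gene set to 0 and 1 point for each library. Flt1, Kdr and Bsg lie above wild type in all 10 5xFAD libraries, and Sox17 and Rgs5 lie below it. The share of all tested genes so placed was not counted.

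Vascular genes outside the 36, taken from lists by cell class, showed the same direction for most classes in 5xFAD EGFP against wild type. The counts of tested genes in each list stand against 6.35% of all tested genes called lowered and 7.65% raised. Of 24 tested other endothelial genes 22 fell and none rose, with a median log2 change of -1.09. Tjp1, which encodes the tight junction scaffold ZO-1, fell by 0.74 (SE 0.10, limma adjusted p = 0.000614). Of 8 other pericyte genes 7 fell, among them Notch3, a receptor of mural cells, by 1.57 (limma adjusted p = 0.00951), while Cspg4, the NG2 proteoglycan that oligodendrocyte precursors also carry, was at 0.65 (limma adjusted p = 0.137). Of 8 other smooth muscle genes 7 fell, with Myh11, smooth muscle myosin, at -1.39 (limma adjusted p = 0.0117) and Tpm1, a tropomyosin, at -0.72 (limma adjusted p = 0.00898). Of 10 other basement membrane genes 7 fell, including Lamb2, a laminin chain, at -0.85 (limma adjusted p = 0.0301) and Timp3, a matrix metalloproteinase inhibitor, at -1.55 (limma adjusted p = 0.0185). These lists were drawn up with earlier results of these data known.

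Genes were also counted by zone of the arteriovenous axis. Some genes are in more than 1 list, so the counts by class and by zone are not independent. Spock2 and Mfsd2a, for example, are in the other endothelial and capillary lists, Cxcl12 is arterial and capillary, and Gja4 is arterial and in the other pericyte list. Of 10 tested arterial genes 7 fell and none rose, with Gkn3, an arterial endothelial marker, at -1.32 (limma adjusted p = 0.0246) and Mgp, matrix Gla protein, at -1.27 (limma adjusted p = 0.0590). Of 7 capillary genes 4 fell, led in level by Spock2, a proteoglycan, at -1.60 (limma adjusted p = 0.0144), while Slc16a1, a monocarboxylate transporter, was at 0.11 (limma adjusted p = 0.717). Of 5 tested venous genes 1 fell and 1 rose. Icam1, an adhesion molecule, was at -0.11 (limma adjusted p = 0.724). The gene that rose was Tmsb10, a thymosin, from 4.48, 4.78 and 5.06 FPKM to 10.2 and 12.6 FPKM, 1.10 higher on the log2 scale (limma, adjusted p = 0.000346). The gene that fell was Vcam1, an adhesion molecule, at -0.86. The venous list also holds genes that immune cells express, and a difference between zones was not tested.

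The ligands and co-receptors of VEGF, angiopoietin and PDGF signalling were also examined. Of 15 listed genes 8 were tested, 3 rose and none fell, where 7.65% of all tested genes were called raised. Nrp1, neuropilin 1, a VEGF and semaphorin co-receptor that myeloid cells also express, was at 8.15, 8.03 and 7.14 FPKM in wild type, 20.1 and 20.3 FPKM in 5xFAD EGFP, 23.3, 25.3, 30.1 and 21 FPKM with circPOLR2A, and 21.3, 25.6, 20.5 and 28 FPKM in PKR knockout. Its log2 change was 1.28 (limma adjusted p = 0.000176) in 5xFAD EGFP, and all 10 5xFAD libraries were above wild type. Nrp2 rose by 0.57 (limma adjusted p = 0.00171) and Vegfb, a ligand of Flt1, by 0.43 (limma adjusted p = 0.0255). Pdgfb, the ligand of Pdgfrb, had the highest mean of the list and was at -0.11 (limma adjusted p = 0.692).

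Markers of other cells that can accompany microglia were summed in each library. Border macrophage genes, of the macrophages that sit around vessels and in the meninges, summed to 60.6, 67.9 and 42.9 FPKM in wild type and to 29.3 and 20.7 FPKM in 5xFAD EGFP. All 6 tested border macrophage genes were lowered, by log2 changes of -1.12 to -0.75, and the 2 with the highest levels were Mrc1, the mannose receptor, at -1.07 and Pf4, platelet factor 4, at -1.02 (limma adjusted p = 0.00436 and 0.0460). Their sums were 16.1 to 27.9 FPKM with circPOLR2A and 16.3 to 22 FPKM in PKR knockout. Perivascular fibroblast genes summed to 16.2 to 25 FPKM in wild type and 8.24 and 9.59 FPKM in 5xFAD EGFP, with 1 of 2 tested genes lowered, Mmp2, a gelatinase, at -0.56 (limma adjusted p = 0.0422), and Igf2, a growth factor, at -1.14 (limma adjusted p = 0.130). Dpt, a dermal matrix gene of that list, was listed at 0 in every library. Choroid plexus and ependyma genes, with Ttr, transthyretin, and Kl, klotho, at the highest levels, summed to 2689, 2088 and 1054 FPKM in wild type and 783 and 571 FPKM in 5xFAD EGFP. They summed to 357 to 2249 FPKM with circPOLR2A and 206 to 826 FPKM in PKR knockout. All 6 of these genes were below wild type in every 5xFAD EGFP library and every PKR knockout library, while with circPOLR2A each overlapped wild type. Such full separation was also rarer with circPOLR2A over all tested genes, at 8.0%, against 21.1% in 5xFAD EGFP and 21.1% in PKR knockout. The change passed for 1 of 6 in 5xFAD EGFP (6.35% of all tested genes lowered), for 2 of 6 with circPOLR2A (8.05%) and for 6 of 6 in PKR knockout (19.4%), and the difference between these counts was not tested. The part of these cells in the vascular result was not tested.

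Markers of other brain cells gave few calls. Of 5 tested neuron genes and 8 oligodendrocyte genes none was called in 5xFAD EGFP. Neuron genes, with Nefl, a neurofilament, and Slc17a7, a glutamate transporter, highest, summed to 8.31 to 28.4 FPKM in wild type and 20.5 and 24.4 FPKM in 5xFAD EGFP. Oligodendrocyte genes, led by the myelin genes Mbp and Mobp, summed to 374 to 1644 FPKM and to 694 and 735 FPKM, and 0 of 8 passed. Astrocyte genes summed to 98.6 to 343 FPKM and to 154 and 223 FPKM. Of 8 astrocyte genes 7 had a log2 change below 0 in 5xFAD EGFP and none of these passed, with a median of -0.39 over the list. Gfap, the intermediate filament of reactive astrocytes, rose by 1.72 (limma adjusted p = 0.00868), and Slc1a2, a glutamate transporter, was at -0.04. Of 10 microglial genes 1 was lowered and 1 raised, and their median log2 change was -0.26. T cell, B cell and neutrophil genes summed to at most 16.5 FPKM, in a PKR knockout library, and S100a8 and S100a9, neutrophil genes, were at 0.02 and 0.11 on the log2 scale. Red blood cell genes, led by Hba-a1 and Hbb-bs, the globins, summed to 36.3, 3.01 and 19.1 FPKM in wild type and 5.79 and 8.81 FPKM in 5xFAD EGFP, and 0 of 4 passed.

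**Figure D3:**
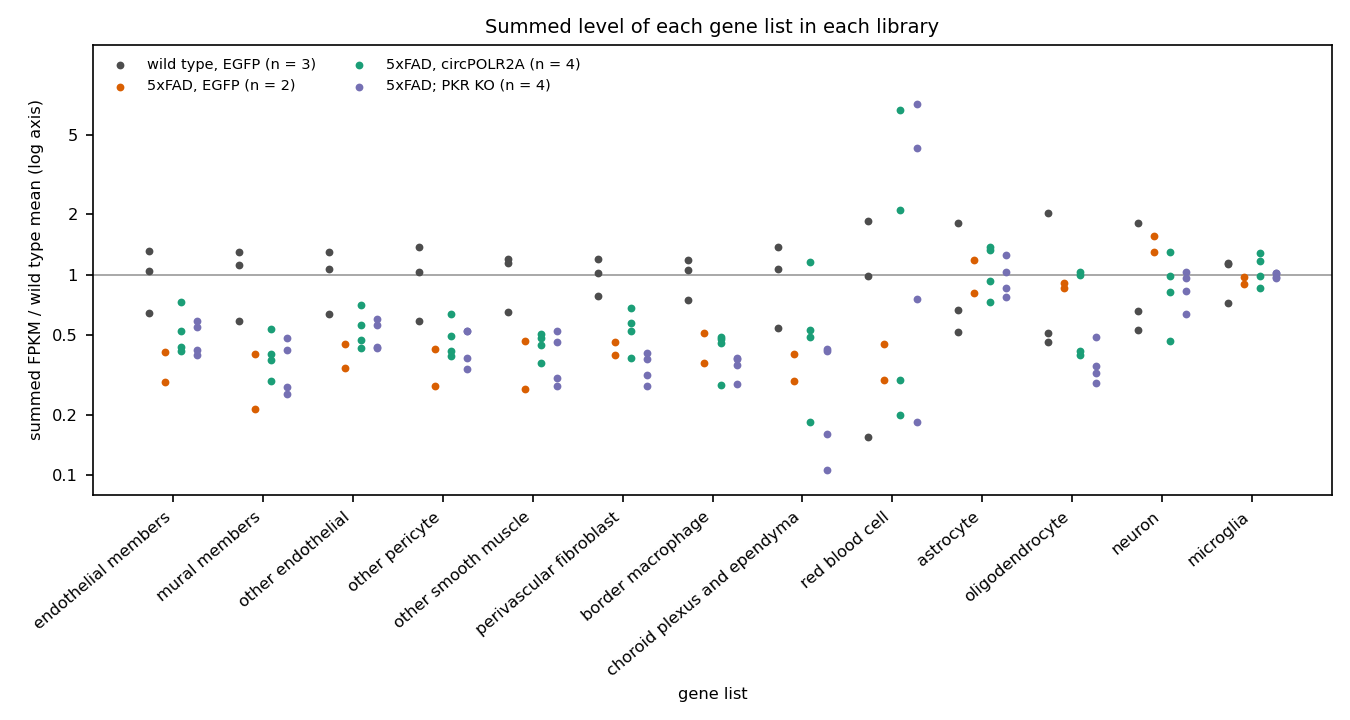
Summed FPKM of 13 gene lists in each library, divided by the wild type mean of that list (log axis), with 1 point for each library. The 5xFAD EGFP points of the vascular, fibroblast, border macrophage and choroid plexus lists lie below 1, whereas the neuron points of 5xFAD EGFP lie above 1. Those of the red blood cell, oligodendrocyte and microglia lists also lie below 1, and those of the astrocyte list lie on both sides.

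Within groups the members also rose and fell together. Of the 32 tested members, 31 were lowest in wild type replicate 2 among the wild type libraries, and 27 were highest in replicate 3, with a median ratio of 2.25 between the highest and the lowest wild type library. Replicate 3 with circPOLR2A was the highest of its group in 31 members. In PKR knockout the highest was replicate 1 for 23 members and replicate 3 for 7. The shares of all tested genes with these ranks were not counted, and the summed FPKM of all genes also differed between libraries. That sum was 170775 in circPOLR2A replicate 3, against 148551 to 156281 in the others of its group. In wild type it was 135807, 123352 and 126571 in replicates 1 to 3, and in PKR knockout 148055 to 153899. Red blood cell genes summed to 129 FPKM in circPOLR2A replicate 3, against 3.90, 5.83 and 40.9 FPKM in the others, and to 83.2 and 139 FPKM in PKR knockout replicates 1 and 3, against 3.60 and 14.7 FPKM in replicates 2 and 4. In wild type the blood sum was highest in replicate 1 (36.3 FPKM, against 3.01 and 19.1 FPKM in replicates 2 and 3). Wild type replicate 3, the highest in most members, also had the highest sums of other brain cells. Its oligodendrocyte genes summed to 1644 FPKM, against 416 and 374 FPKM in replicates 1 and 2, its astrocyte genes to 343 FPKM, against 126 and 98.6 FPKM, and its neuron genes to 28.4 FPKM, against 10.4 and 8.31 FPKM. The part of blood and of these cells in the results was not tested.

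The circular RNA was compared with EGFP in 5xFAD to see whether the vascular signal changed with the treatment. No member passed in limma, as in all tested genes (0.00% called), and an unadjusted p under 0.05 was found for 5 of 32, against 4.83% of all tested genes. The median member was 0.44 higher with circPOLR2A, against 0.08 for all tested genes, 0.30 without circPOLR2A replicate 3, 0.25 without 5xFAD EGFP replicate 2 and 0.69 without 5xFAD EGFP replicate 1. All 32 members had a log2 change above 0, and the share of all tested genes above 0 was not counted. The members moved together within groups, so these are not 32 separate observations. Among the 5, Tek was 0.61 higher (SE 0.27) and Cdh5 0.58 higher (SE 0.27), both at a limma adjusted p of 0.739. Voom on recovered fragments called 0 members as well.

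PKR knockout was compared with 5xFAD EGFP in the same way. Of the 32 members 0 passed in limma, against 0.0832% of all tested genes, and voom called 0. The unadjusted p was under 0.05 for 3 of 32, against 13.0% of all tested genes, so this count does not stand above the background. The median member was 0.36 higher in the knockout, against 0.01 for all tested genes. Of the members 30 of 32 were above 0, and the share of all tested genes above 0 was not counted. The median of the members was 0.56 without 5xFAD EGFP replicate 1 and 0.16 without replicate 2. Flt1 had one of the largest differences, 0.69 (SE 0.26, limma adjusted p = 0.287). Its 4 knockout libraries were all above both 5xFAD EGFP libraries. Flt1 passed with the 2 groups fitted alone (limma adjusted p = 0.00741), a fit that called 5.33% of all tested genes. With libraries weighted by arrayWeights, Flt1 and Sox18 passed (limma adjusted p = 0.0364 and 0.0441), where 7.6% of all genes were called. Ahnak, at 0.71 (SE 0.32, limma adjusted p = 0.374), and Sox18, at 0.62 (SE 0.24, limma adjusted p = 0.296), were the other members with an unadjusted p under 0.05. The contractile genes Acta2, Tagln and Myl9 differed by -0.05, -0.07 and 0.12, with limma adjusted p-values of 0.896 to 0.965.

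The circPOLR2A and PKR knockout groups were still below wild type, in comparisons that share the wild type libraries with each other and with 5xFAD EGFP. With circPOLR2A 21 of 32 members were lowered, against 8.05% of tested genes, with a median of -0.87 and 48.5% of wild type FPKM over these 32. All 4 of these libraries lay below wild type in 13 of the 32, against 8.0% of tested genes. The count of calls was 7 without wild type replicate 3, 10 without wild type replicate 1, 13 and 11 without circPOLR2A replicates 1 and 2, and 11 with the 2 groups alone. The 8.05% belongs to the fit of all libraries in 4 groups. The shares of all tested genes in these other fits are not given here. In PKR knockout 27 of 32 were lowered, against 19.4% of tested genes, with a median of -1.04 and 42.8% of wild type over the 32. All 4 knockout libraries lay below wild type in 22 of 32 members, against 21.1% of tested genes.

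By class, 11 of 17 tested endothelial members and 5 of 6 mural members were lowered with circPOLR2A, at a median of 51.2% and 38.0% of wild type over these tested members, and 15 of 17 and 6 of 6 in PKR knockout, at 43.2% and 34.3%. Smooth muscle genes were lowest of the classes with circPOLR2A, where Acta2 changed by -1.35 (SE 0.33, limma adjusted p = 0.00990) and Myl9 by -1.31 (SE 0.31, limma adjusted p = 0.00909). In PKR knockout Pltp changed by -1.54 (SE 0.28, limma adjusted p = 0.00127) and Acta2 by -1.51 (SE 0.33, limma adjusted p = 0.00395). Cldn5 reached -0.95 (SE 0.36, limma adjusted p = 0.0688) with circPOLR2A and -1.13 (SE 0.36, limma adjusted p = 0.0263) in PKR knockout. Flt1, Kdr, Bsg and Sparc passed in neither group. Col4a1 did not pass in either group, at limma adjusted p-values of 0.0559 with circPOLR2A and 0.0721 in PKR knockout. The other members not called with circPOLR2A were Cldn5, Ly6a, Itm2a, Vwf, Slco1a4 and Vtn, with limma adjusted p-values of 0.0538 to 0.0968.

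Set directly against each other, circPOLR2A and PKR knockout differed in 0 of 32 members in limma and in 0 under voom, against 6.19% of all tested genes, and no unadjusted p was under 0.05 (0 of 32), against 25.5% of all tested genes. The median member was 0.14 higher with circPOLR2A, against 0.08 for all tested genes. Pltp had the largest difference, at 0.52 (SE 0.26, limma adjusted p = 0.232), from 21.9, 17.2, 36.4 and 32.4 FPKM with circPOLR2A and 22.4, 16, 20.3 and 13.5 FPKM in PKR knockout. The 2 groups overlapped for Pltp. A p above the threshold does not show that the 2 groups were alike.

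**Figure D4:**
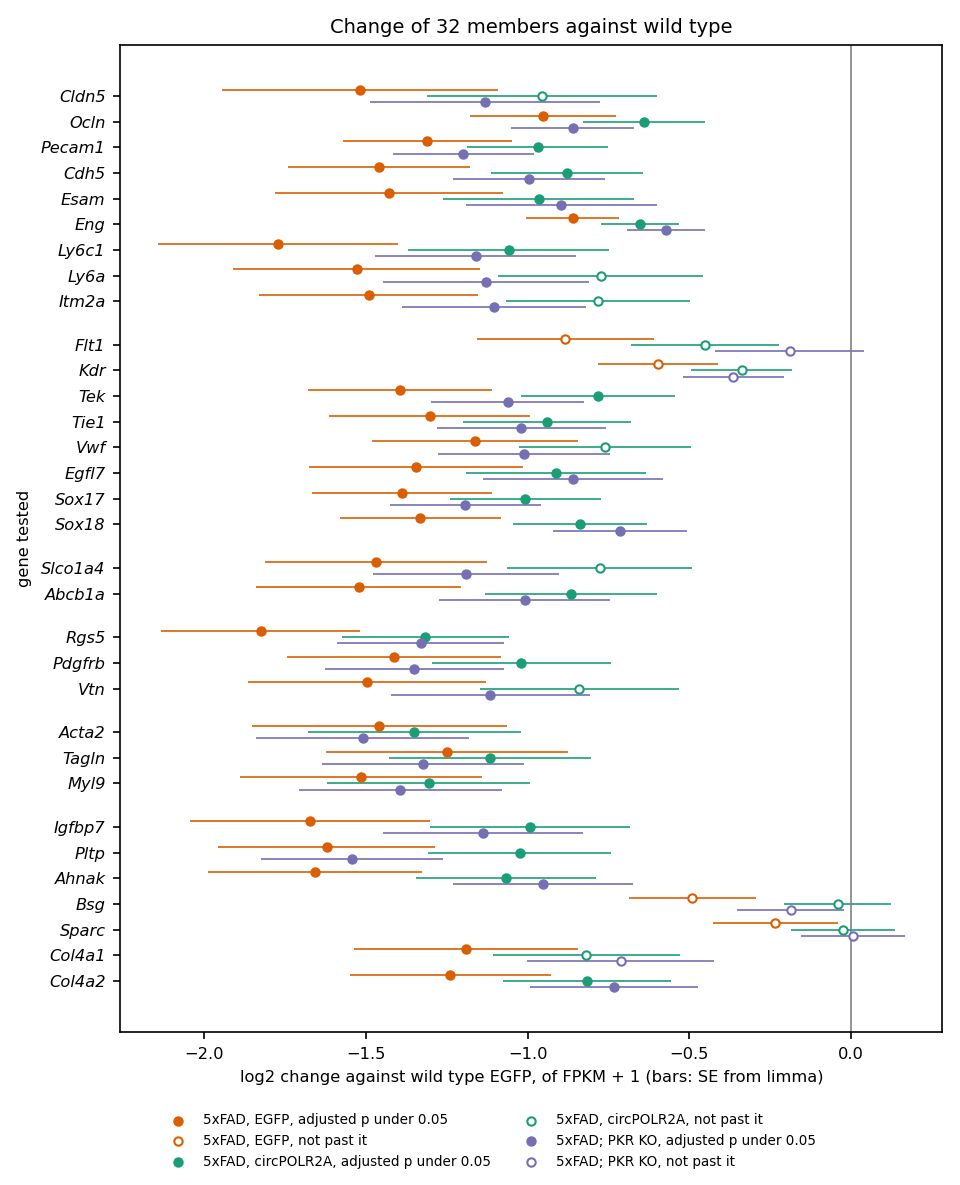
Log2 change (of FPKM + 1) of the 32 tested members against wild type EGFP in the 3 5xFAD groups, with bars of 1 SE from limma and filled points for an adjusted p under 0.05. The 5xFAD EGFP point is farthest from 0 for every endothelial gene, and Flt1, Kdr, Bsg and Sparc have open points in all 3 comparisons.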

How the data were processed

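Gene expression was measured in 13 mouse microglia libraries of 4 groups, each taken from the sample titles. The authors deposited FPKM values for 19737 genes, and depth was recovered from those values: 90.3 to 91.9% of low values were whole fragments within 0.02, for 45.2 to 70.0 M fragments (M, 1000000) a library. The submitters' processing notes name Bowtie2 2.3.5, HISAT2 2.1.0, featureCounts 1.5.1 and the mm10 build, while the strand setting is not given in the sources used here. Values were tested as log2(FPKM + 1) with limma 3.58.1 in R 4.3.3, in 1 model of the 4 groups over genes whose mean reached 1 FPKM, with Benjamini-Hochberg adjusted p under 0.05 as the threshold in each of 6 comparisons. A fold on this scale understates the change of low genes. The script was tested on simulated data. The members and the other gene lists were chosen with earlier results of these data known. Every library is given for members called in 5xFAD EGFP against wild type and for those with the highest levels or the largest change of their class. From each other list the 2 tested genes with the highest mean are named, except for some not reported here, and Tmsb10, Vcam1, Nrp1 and Nrp2 were named after their values were seen. Alternatives changed the pseudocount, filter, scaling, fit and library weights, left out each library in turn or added a replicate block. Voom on recovered fragments was added after seeing the data.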

Additional observations from a re-analysis of the deposited data

Results flagged for a closer look

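In each group of 4 libraries the FPKM of every member was examined for a library far from the other 3, by the gap to the nearest library over the range of the group against Dixon's critical value. Of 72 such groups 4 were picked out, where chance picks out about 1 in 20. In the circPOLR2A group the library was replicate 3 each time. Bsg, basigin, was at 194.8 FPKM there, against 129.9 to 135.4 FPKM in the other 3 libraries. Vwf, von Willebrand factor, was at 5.22 FPKM, against 2.92 to 3.14 FPKM. Kcnj8, the potassium channel pore of pericytes, was at 0.990 FPKM, against 0.155 to 0.297 FPKM. In PKR knockout, Emcn, endomucin, was at 0.670 FPKM in replicate 1, against 0.485 to 0.5 FPKM in the other 3.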

How the results depend on the processing

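Of 732 results for single members under the alternatives, 632 kept their direction and side of the threshold, 84 no longer passed, 16 newly passed and 0 reversed. The number of members called in 5xFAD EGFP against wild type was 28 and fell to 6 when the 2 groups were fitted alone, with 25 to 32 under the other alternatives that kept every library. Of all tested genes 6.35%, 1.14% and 5.04 to 27.7% were called lowered in these fits. Leaving out 1 library at a time gave 3 to 30 calls there, 7 to 30 for circPOLR2A against wild type, 19 to 30 for PKR knockout against wild type, and 0 to 0 for circPOLR2A against EGFP, PKR knockout against EGFP and circPOLR2A against PKR knockout. Where 2 or more libraries were left in every group, 3.11 to 9.51% of all tested genes were lowered in 5xFAD EGFP against wild type. The shares for the other comparisons are not given here. With the 2 groups alone, circPOLR2A against wild type gave 11 calls and PKR knockout against EGFP gave 1 (5.33% of all tested genes called), and arrayWeights gave 2 for the latter (7.6%). Rescaling every library to the same sum moved the median of all tested genes in 5xFAD EGFP against wild type from -0.03 to -0.17 and that of the members from -1.40 to -1.56. Rescaling also changed the split over all tested genes from 687 lowered and 827 raised to 3001 and 708. With a replicate block the calls were 28 for 5xFAD EGFP, 28 for circPOLR2A and 29 for PKR knockout against wild type, and 0 for the 3 comparisons within 5xFAD. That fit lowered 5.55% of all tested genes in 5xFAD EGFP against wild type. The replicate numbers were not taken to pair the libraries, since no 2 groups with 3 or more shared numbers had every same-number correlation of deviations from the group means above 0.1. These were -0.42, 0.69 and -0.20 for wild type with circPOLR2A, -0.18, 0.58 and 0.03 for wild type with PKR knockout, and 0.10, 0.55, 0.06 and 0.04 for circPOLR2A with PKR knockout, and 1 number in each correlated best with itself. 5xFAD EGFP shares 2 numbers with each group, at -0.03 and 0.27, -0.02 and 0.17, and 0.38 and 0.27 for wild type, circPOLR2A and PKR knockout. The cause of these differences was not tested. The 5xFAD EGFP group has 2 libraries, and what depth adds to the error was not tested.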

Other observations

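The balance of mural and endothelial genes was summarised after the values were seen, as the geometric mean FPKM of the 6 tested mural members over that of the 17 tested endothelial members in the same library, with no test. The ratio was 1.55 to 1.80 in wild type, 1.73 and 1.28 in 5xFAD EGFP, 1.23 to 1.46 with circPOLR2A and 1.03 to 1.37 in PKR knockout. All 8 libraries with circPOLR2A or PKR knockout lay below the wild type range, and the 5xFAD EGFP libraries lay on both sides of its lower end. The endothelial geometric mean itself was 10.6, 6.59 and 14.2 FPKM in wild type and 4.09 and 2.90 FPKM in 5xFAD EGFP, and the mural one was 19.1, 10.2 and 22.9 FPKM and 7.07 and 3.70 FPKM.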
